A study of Mus musculus with 9 samples.

Results

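The cell cycle genes of the mouse epididymis were taken as 55 of the 32195 genes in the deposited UMI table. A gene was a member when its symbol began with Cenp and a letter, Mcm and a digit of the replicative helicase, Ccna, Ccnb, Ccne, Aurk or Bub1, or was Cdk1, Mki67, Top2a, Hmmr, Prc1, Ube2c, Pcna, Birc5, Tpx2, Kif11, Kif23 or Rrm2. The rule reads symbols alone. The rule also took in 2 pseudogenes (Ccnb1-ps and Ccnb2-ps) and 5 genes whose main role lies elsewhere, namely Aurkaip1 (a mitochondrial ribosomal protein), Mcm3ap (a factor in mRNA export), Cenpj (a centriole protein), Ccnb1ip1 (a meiotic recombination factor) and Cenpv. All 55 had at least 3 UMIs, and together they held 175665 of the 259984768 UMIs of the kept cells.

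The study dissociated the caput, corpus and cauda of the epididymis of C57BL/6 (C57BL/6J in the methods of the study) wild-type mice, with no treatment, and sequenced single cells on a microwell chip with barcoded beads. One pool of mice was taken at 42 days (P42), when the duct holds the first wave of sperm, and 2 pools at 56 days (P56). Each pool held 5 mice and gave 1 library of each segment, which made 9 libraries, so the 3 libraries of a pool share their mice and the age of 42 days rests on 1 pool. Red cells were lysed and sperm were not depleted.

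Of 44869 barcodes, 41036 cells were kept after the limits of the study on genes and further limits on UMIs and mitochondrial share, and after 1051 globin-rich barcodes were left out. The libraries held 18664955 to 40763161 UMIs of kept cells, and the median cell had from 3061 UMIs in the P42 cauda to 7641 in the cauda of P56 pool 2. Median mitochondrial shares were 5.98% to 6.40% in caput and 10.8% to 23.9% in corpus and cauda. The same barcode sequence occurred in more than 1 library for 273 kept cells. Cell types were assigned by marker genes, which placed 15281 cells as principal, 3232 as clear or narrow, 2260 as myoid or fibroblast, 2176 as macrophage or monocyte, 1851 as basal, 764 as endothelial, 642 as sperm, 450 as halo or T and 274 in a gate of ciliated-cell markers, while 14106 stayed unassigned. The same markers set the gates, so their levels are no check of the types. Doublets were not removed by a caller. A cell with close high scores for 2 types other than principal was left unassigned. Principal markers did not keep a cell out of another gate, so doublets with principal cells can lie in the other gates.

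The cell cycle genes act in turn. The Mcm proteins form the helicase that is loaded onto origins and opens DNA in S phase, Pcna is the clamp of the replicative polymerases, and Rrm2 is the small subunit of the enzyme that makes deoxynucleotides. Cyclin A and cyclin B drive Cdk1 into mitosis, where the Cenp proteins build the centromere and kinetochore, the aurora kinases and Bub1 family control spindle attachment, and Tpx2, Kif11, Kif23, Prc1 and Hmmr shape the spindle and the cleavage furrow. Ccna1 and Aurkc are the germ line relatives of Ccna2 and of Aurka and Aurkb. Most epithelial cells of the adult epididymis divide rarely.

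Many mitotic genes are silenced outside the cycle through promoters with a CHR element and CCAAT boxes, and genes of S phase through E2F sites. The stretch of 200 bases before the start is shown for 4 mitotic members and 2 helicase members whose levels are described later, from RefSeq on build GRCm38.p6 and on the strand of the gene. Capitals mark 3 kinds of letters on either strand, and overlapping matches run together. A CHR element was TTTGAA in its usual form and TTCGAA in its variant form, and the box was CCAAT. An E2F site was read as TTCCCGC in 1 form, as TTGGCGC in another, as TTCGCGC in the next and as TTGCCGC in the last. The positions were chr7:135716380-135716579 (minus strand) for Mki67, chr11:99024190-99024389 (minus strand) for Top2a, chr9:70421555-70421754 (minus strand) for Ccnb2, chr10:69352913-69353112 (minus strand) for Cdk1, chr1:20820313-20820512 (minus strand) for Mcm3 and chr1:128359706-128359905 (minus strand) for Mcm6.
Mki67: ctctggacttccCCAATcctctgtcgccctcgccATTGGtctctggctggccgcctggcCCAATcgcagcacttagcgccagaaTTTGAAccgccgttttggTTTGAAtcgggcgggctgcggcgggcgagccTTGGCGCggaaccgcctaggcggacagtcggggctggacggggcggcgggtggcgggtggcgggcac
Top2a: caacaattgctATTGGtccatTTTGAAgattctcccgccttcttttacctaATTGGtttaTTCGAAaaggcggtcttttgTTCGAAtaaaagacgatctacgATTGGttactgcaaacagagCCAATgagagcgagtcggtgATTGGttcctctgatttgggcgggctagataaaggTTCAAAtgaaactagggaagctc
Ccnb2: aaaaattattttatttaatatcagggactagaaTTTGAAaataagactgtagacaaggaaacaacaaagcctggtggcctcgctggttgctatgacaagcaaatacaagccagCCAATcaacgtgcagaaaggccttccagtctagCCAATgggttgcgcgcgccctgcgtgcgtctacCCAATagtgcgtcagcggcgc
Cdk1: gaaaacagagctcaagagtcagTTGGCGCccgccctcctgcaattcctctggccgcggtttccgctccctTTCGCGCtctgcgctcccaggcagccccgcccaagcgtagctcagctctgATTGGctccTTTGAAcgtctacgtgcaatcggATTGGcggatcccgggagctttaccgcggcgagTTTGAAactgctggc
Mcm3: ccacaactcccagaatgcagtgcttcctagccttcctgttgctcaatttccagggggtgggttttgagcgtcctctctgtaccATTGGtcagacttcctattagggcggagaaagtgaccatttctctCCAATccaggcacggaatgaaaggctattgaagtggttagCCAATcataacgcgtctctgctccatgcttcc
Mcm6: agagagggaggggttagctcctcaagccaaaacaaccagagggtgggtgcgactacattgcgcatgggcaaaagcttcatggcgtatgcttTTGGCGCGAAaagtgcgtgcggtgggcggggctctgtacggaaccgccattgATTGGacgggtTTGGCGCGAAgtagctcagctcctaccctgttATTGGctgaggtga

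Promoters were found for 47 members, and 27025 genes of the promoter table served as the background. In the 250 bases before the start, CCAAT occurred in 16 of 17 members of the mitotic set (94.1%, the set is defined with the levels) and in 37.5% of all genes. CHR letters occurred in 8 of these 17 (47.1%) and in 19.6% of all genes, and CHR together with CCAAT in 47.1% and in 7.93%. CCAAT was also found in 7 of 8 S phase members (87.5%). E2F letters were found in 4 of 8 S phase members (50%), in 4 of the 17 mitotic members (23.5%), in 6 of the 22 other members (27.3%) and in 9.01% of all genes. A match of letters is a description of the sequence, and it is no measure of binding.

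Levels are given as CPM, the UMIs of a gene per 1000000 UMIs of the kept cells of a library. Where 3 values follow a segment they are those of P42, P56 pool 1 and P56 pool 2, in this order. The S phase group of 10 members (Pcna, Mcm2 to Mcm7, Rrm2, Ccne1 and Ccne2) summed to 166, 92.9 and 122 in caput, 183, 135 and 147 in corpus and 175, 120 and 131 in cauda. The mitotic set of 20 members (Ccna2, Ccnb1, Ccnb2, Cdk1, Cenpa, Cenpe, Cenpf, Mki67, Top2a, Hmmr, Prc1, Ube2c, Tpx2, Kif11, Kif23, Aurka, Aurkb, Bub1, Bub1b and Birc5) summed to 363, 173 and 276 in caput, 494, 110 and 111 in corpus and 208, 61.0 and 78.0 in cauda. The mitotic sum therefore spanned a wider range over libraries than the S phase sum, it was highest in the P42 corpus, and in each segment P42 stood above both P56 pools for both sums. Divided by the composition factors of edgeR, which the fits use, the mitotic sum kept this order in all 3 segments, but the S phase sum kept it only in caput, with 139 at P42 against 154 and 179 in corpus and 133 against 156 and 165 in cauda. In summed libraries, fewer cycling cells and less RNA per cycling cell cannot be told apart.

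**Figure D1:**
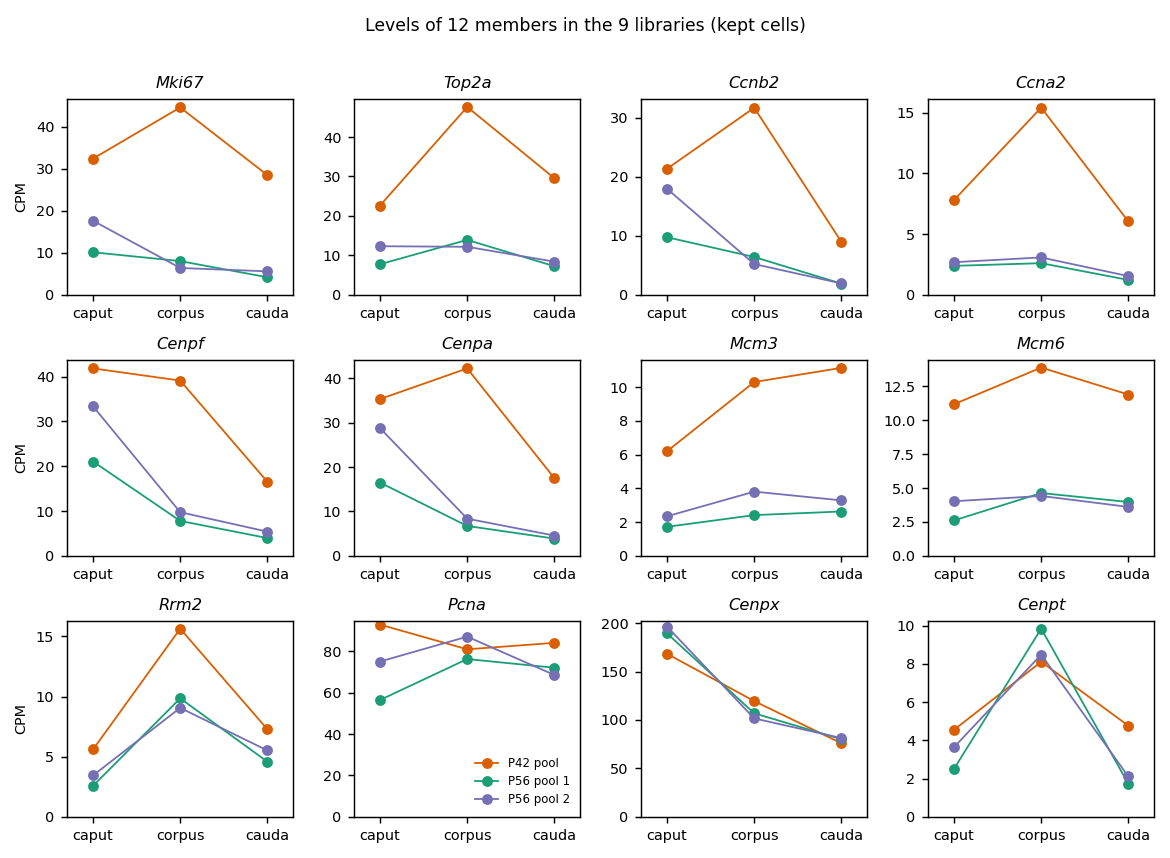
Levels of 12 members (vertical axis, CPM, from 0) in the caput, corpus and cauda libraries of the P42 pool and the 2 P56 pools, 1 point a library. Mki67 stood at 28.5 to 44.6 in the P42 libraries and at 4.19 to 17.6 in the P56 libraries, whereas Cenpx ran from 168 to 196 in caput to 76.0 to 81.3 in cauda with no such gap between ages.

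Between segments, 18 of 52 tested members differed (edgeR quasi-likelihood test with the pool as a block, Benjamini-Hochberg adjusted p under 0.05), beside 29% of all genes tested. Of the 18, 12 were highest in caput, 4 in corpus and 2 in cauda. The caput group held 9 members of the mitotic set (Cenpf, Cenpa, Cenpe, Ccnb1, Ccnb2, Tpx2, Birc5, Hmmr and Bub1) with Cenpx, Cenpm and Ccna1, and the corpus and cauda groups held Rrm2, Mcm3 and Mcm4 of S phase with Top2a, Ccna2 and Cenpt. For cauda minus caput alone, 15 members were lower, beside 14.4% of all genes, and 3 higher, beside 11.1%. With the scaling factors of edgeR set to 1 the split was 18 lower and 1 higher, and the median of all genes went from 0.02 to −0.22 on the log2 scale. Of all genes that passed, 71.5% were lower in that setting and 56.3% in the main fit.

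Among the mitotic cyclins, Ccnb2, a partner of Cdk1, had 21.3, 9.74 and 17.9 CPM in caput, 31.7, 6.41 and 5.21 in corpus and 9.0, 1.90 and 1.94 in cauda. The cauda value was the lowest of its pool in all 3 pools, and the caput and cauda groups did not overlap. The fitted cauda minus caput difference was −2.09 ± 0.36 (log2, SE, adjusted p = 0.0067, edgeR). Ccnb1 fell from caput to cauda by 1.5 on the log2 scale, with an SE of 0.27 (adjusted p = 0.00841, edgeR). Ccna2, the S phase and early mitotic cyclin, was instead highest in corpus, with 15.4, 2.61 and 3.08 there against 6.05, 1.23 and 1.55 in cauda (log2 −1.08 ± 0.22, adjusted p = 0.03, edgeR). Cdk1 itself had 11.1, 4.33 and 5.90 in caput, 21.2, 4.79 and 5.33 in corpus and 8.89, 2.79 and 3.95 in cauda, and it missed the threshold over the 3 segments (adjusted p = 0.0789, edgeR).

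Of the kinetochore members, Cenpf, a large protein of the outer kinetochore, had 41.8, 21.1 and 33.4 CPM in caput, 39.1, 7.79 and 9.74 in corpus and 16.6, 3.97 and 5.40 in cauda. Every pool was ordered caput, corpus, cauda, and the caput and cauda groups did not overlap. The cauda minus caput difference was −1.92 ± 0.27 (log2, SE, adjusted p = 0.003, edgeR). Cenpa, the centromeric histone, gave −1.73 ± 0.32 and Cenpe, a kinetochore motor, −1.16 ± 0.28. Of the constitutive centromere members, Cenpm gave −1.83 ± 0.32, and Cenpx, which also acts with the Fanconi anemia complex, gave −0.98 ± 0.15 with 168, 189 and 196 in caput and 76.0, 80.2 and 81.3 in cauda. Cenpt, which links the centromere to the outer kinetochore, was highest in corpus at 8.11, 9.85 and 8.49 against 4.56, 2.52 and 3.65 in caput (log2 1.54 ± 0.32, adjusted p = 0.0153, edgeR).

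Of the spindle and chromatin members, Hmmr gave −1.92 ± 0.40 and Tpx2 −1.45 ± 0.28 for cauda minus caput (log2, SE), and of the checkpoint and passenger members Birc5 gave −1.61 ± 0.32 and Bub1 −1.54 ± 0.33. Top2a, the topoisomerase that untangles replicated chromatids, was higher in corpus than in caput by 0.79 ± 0.17 (adjusted p = 0.0189, edgeR). Mki67, the common label of cycling cells, had 32.4, 10.1 and 17.6 CPM in caput, 44.6, 8.03 and 6.39 in corpus and 28.5, 4.19 and 5.59 in cauda. Its caput and cauda groups overlapped, because the P42 cauda stood above both P56 caput libraries, and it did not pass over the 3 segments (adjusted p = 0.124, edgeR). Kif11, the motor that separates the spindle poles, had 4.03, 1.91 and 2.20 in caput and 4.29, 1.34 and 1.94 in cauda, and its cauda minus caput difference was 0.04 ± 0.23.

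The S phase members that passed had another order. Rrm2 had 5.61, 2.58 and 3.44 CPM in caput, 15.6, 9.85 and 9.06 in corpus and 7.29, 4.58 and 5.52 in cauda. Corpus was the highest segment of every pool, and its group did not overlap with either of the others. The corpus minus caput difference was 1.75 ± 0.21 (log2, SE, adjusted p = 0.00199, edgeR), and cauda minus caput was 0.87 ± 0.21. Mcm3 and Mcm4, subunits of the helicase, were higher in cauda than in caput by 0.89 ± 0.20 and 1.04 ± 0.25. Pcna, the S phase member with the most UMIs, had 92.9, 56.5 and 75.1 in caput, 81.0, 76.3 and 87.1 in corpus and 84.1, 72.1 and 68.6 in cauda, and Mcm2 was second with 15.3 to 26.8 over the 9 libraries. Neither passed between segments (adjusted p = 0.451 and 0.24, edgeR).

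Ccna1, the germ line A cyclin, gave the largest segment difference of all members, at 0.81, 1.21 and 3.88 CPM in caput and 0.05, 0.03 and 0.02 in cauda (log2 −5.37 ± 0.65, adjusted p = 0.00189, edgeR). Only 245 UMIs of it were counted in all, 134 of them in the caput of P56 pool 2. Caput held 195 UMIs and cauda 3, which was 1 in each cauda library, so the fitted difference depends on the prior count and is no bound. The ratio of caput to cauda over the summed libraries was 65.5, with an exact 95% interval of 22.1 to 320.3 that covers counting error only. The 12 sperm markers summed to 147, 228 and 1174 CPM in caput, 930, 403 and 374 in corpus and 369, 16.2 and 40.7 in cauda, and the 7 meiotic genes described later to 6.80, 12 and 26.9 in caput and 1.18, 0.73 and 0.69 in cauda. Without the cells that carry the meiotic genes the fitted Ccna1 difference was −4.27 (adjusted p = 0.0029, edgeR), and the part of the sperm markers was not tested.

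The segment calls rested on the pools together. Without P56 pool 1 or without P56 pool 2, 0 members passed by edgeR (3.29% and 6.85% of all genes did, and 15 and 14 members had an unadjusted p under 0.05), and without the P42 pool 35 passed (58.3% of all genes). Without the pool as a block 4 passed, beside 20.1% of all genes.

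The segment order was then read within cell types, from UMI sums per type and library. In principal cells, 24 of 50 tested members differed between segments beside 46.7% of all genes, and 12 of these were highest in caput, 9 in corpus and 3 in cauda. Cenpf fell by 2.63 from caput to cauda in principal cells (log2, SE 0.42), Ccnb2 by 2.48 (SE 0.39), Hmmr by 2.47 (SE 0.54), Cenpa by 2.44 (SE 0.42) and Mki67 by 1.38 (SE 0.34). Rrm2 was higher in corpus than in caput by 2.13 ± 0.27, Cenpt by 1.82 ± 0.22, Mcm3 by 1.43 ± 0.29 and Mcm6 by 1.17 ± 0.23. The order of the whole libraries was thus also that of principal cells, which are a part of them, for Ccnb2, Cenpf, Cenpa, Rrm2 and Cenpt. In the other types few members passed: Cenpt in clear or narrow cells (1 of 36), Ube2c and Mki67 in halo or T cells (2 of 13), Cenpx in macrophages or monocytes (1 of 33) and in myoid cells or fibroblasts (1 of 30), and 0 of 29 in basal and 0 of 21 in endothelial cells by edgeR (5 and 3 with an unadjusted p under 0.05). All-gene shares there were 17.4%, 12.8%, 12.8%, 10.1%, 16.4% and 7.2%, in the same order of types. These types had fewer cells than the principal cells, and differences between types in segment effects were not tested.

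Between ages, 36 of 53 tested members differed for the mean of the 3 segments (edgeR, adjusted p under 0.05), beside 43.3% of all genes. At P56, 29 were lower, against a background of 22.2% of all genes, and 7 were higher, against 21.1%. The lower members included 18 of the 20 mitotic set members, with the largest differences in Mki67, Ccna2 and Bub1b, and the helicase subunits Mcm5, Mcm3 and Mcm6. The median over all genes tested was 0.03 on the log2 scale.

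Mki67 had 32.4, 44.6 and 28.5 CPM in the P42 caput, corpus and cauda, against 10.1, 8.03 and 4.19 in P56 pool 1 and 17.6, 6.39 and 5.59 in P56 pool 2. In CPM, which use no composition factors, all P42 libraries stood above all P56 libraries, a gap that was not counted over all genes. The fitted difference was −1.55 ± 0.15 (log2, SE, adjusted p = 0.000122, edgeR), with −0.87 ± 0.25 in caput, −1.98 ± 0.25 in corpus and −1.78 ± 0.26 in cauda. Ccna2 had 7.82, 15.4 and 6.05 at P42 and 1.23 to 3.08 in the 6 libraries of P56, again without overlap (log2 −1.46 ± 0.15). Top2a had 22.6, 47.6 and 29.6 at P42 and 7.27 to 13.9 at P56 (log2 −1.06 ± 0.12). Ccnb2, Cenpa and Kif23 fell by 1.18, 1.14 and 1.10 (SE 0.15, 0.15 and 0.14), but the caput of P56 pool 2 stood above the P42 cauda for Ccnb2 (17.9 and 9.0) and Cenpa (28.8 and 17.5). Cdk1 fell by 0.93 (SE 0.14), with 8.89 to 21.2 at P42 and 2.79 to 5.90 at P56.

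Of the 6 helicase subunits, 4 were lower at P56. Mcm5 had 3.96, 6.57 and 7.55 CPM at P42 and 1.15 to 2.52 at P56, Mcm3 had 6.20, 10.3 and 11.1 and then 1.72 to 3.81, and Mcm6 had 11.2, 13.9 and 11.9 and then 2.61 to 4.63. In these 3 the ages did not overlap in CPM, which was not counted over all genes. The fitted differences, which use the composition factors, were −1.26 ± 0.17, −1.15 ± 0.18 and −1.08 ± 0.13 (log2, SE). Mcm7 fell by 0.39 (SE 0.14), Mcm4 gave −0.06 ± 0.15 (adjusted p = 0.776, edgeR) and Mcm2 gave 0.46 ± 0.13 (adjusted p = 0.0243, edgeR), which turned to −0.13 with scaling factors set to 1. Rrm2 gave −0.13 ± 0.12 (adjusted p = 0.44, edgeR).

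Higher at P56 were Cenpv (1.31 ± 0.30), Cenpx (0.62 ± 0.09), Aurkaip1 (0.50 ± 0.09), Cenpw (0.46 ± 0.13), Mcm2, Cenpq (0.42 ± 0.13) and Pcna (0.34 ± 0.10), but with scaling factors set to 1 in place of the composition factors of edgeR, Pcna turned to −0.25, Mcm2 to −0.13, Cenpq to −0.17, Cenpw to −0.12 and Aurkaip1 to −0.09. The composition factors were 1.31 to 1.32 in the P42 libraries and 0.77 to 1.09 in the P56 libraries. With factors set to 1, the median over all genes was −0.56, 42 members passed (beside 51.8% of all genes) and all 42 were lower at P56, as were 92.0% of all genes that passed. In CPM, which use no such factors, Pcna stood at 81.0 to 92.9 at P42 and 56.5 to 87.1 at P56, so the order of the ages for these 5 members depends on the scaling. Cenpv had 2.94, 5.45 and 8.84 at P42, 8.60, 18.1 and 1.87 in P56 pool 1 and 26.6, 18.1 and 2.23 in P56 pool 2, where cauda was lower at P56 in both pools and caput and corpus were higher. With the 3 segments summed per pool, Cenpv passed (adjusted p = 0.048, edgeR) and the other 6 did not (adjusted p of 0.0511 to 0.225). The 80 cells with meiotic genes, described later, held 23.2% of the UMIs of Cenpv. Of these cells 49 and 15 lay in the P56 caput libraries and 2 in the P42 caput. Without them all 36 members called between ages still passed, Cenpv among them, but its size there is not given here.

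**Figure D2:**
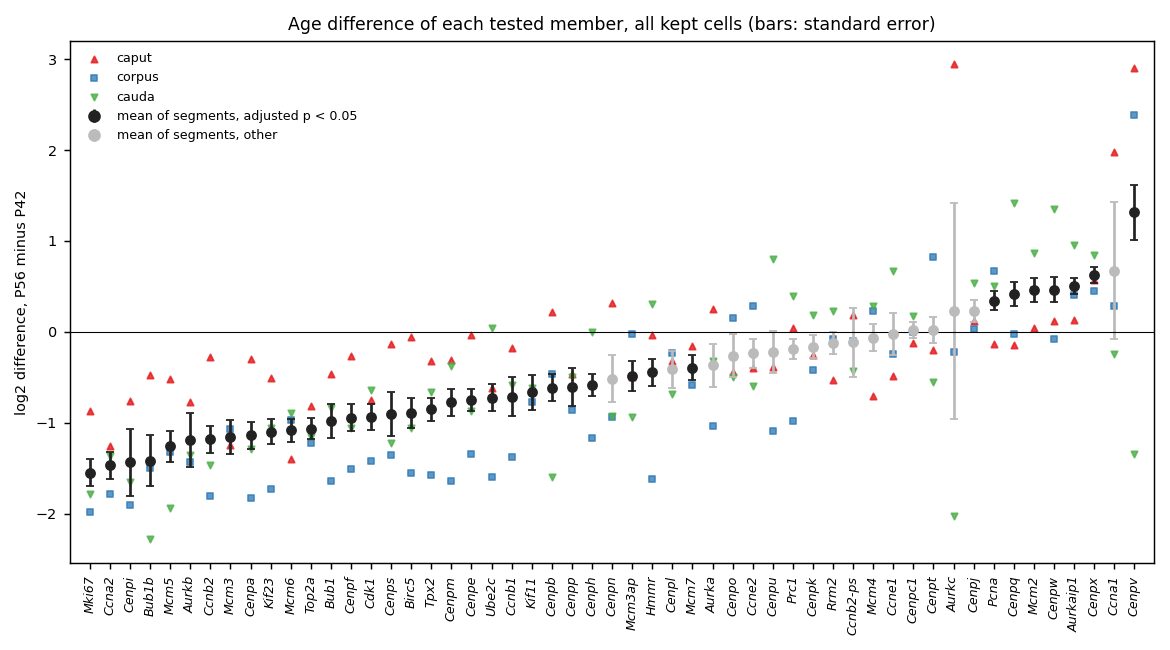
Age difference of each of the 53 tested members (vertical axis, log2 of P56 minus P42), as the mean of 3 segments with its standard error (circles, black where the adjusted p was under 0.05) and in each segment (small symbols). Mki67 at −1.55 and Ccna2 at −1.46 lie lowest and Cenpv at 1.31 highest. The corpus value lies below the caput value for all 20 mitotic set members, a count not taken over all genes. The median over all genes was 0.05 in corpus and 0.01 in caput. Each segment value rests on 1 P42 library, and of the 20 only Hmmr, Prc1 and Ube2c passed the interaction test.

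The age difference differed between segments for 7 of 53 members (interaction of age and segment, adjusted p under 0.05, edgeR), beside 14.4% of all genes. The members were thus not called more often than all genes. The 7 were Cenpv, Hmmr, Cenpq, Prc1, Cenpb, Cenpw and Ube2c. Hmmr gave −0.03 ± 0.25 in caput, −1.61 ± 0.25 in corpus and 0.30 ± 0.28 in cauda, and Prc1, which bundles the central spindle, 0.04 ± 0.19, −0.98 ± 0.19 and 0.39 ± 0.20. Ube2c, the ubiquitin carrier of the anaphase complex, gave −0.62 ± 0.25, −1.60 ± 0.25 and 0.04 ± 0.27. Mki67, Ccnb2 and Cenpa did not pass this test (adjusted p = 0.133, 0.0547 and 0.0596, edgeR).

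The makeup of the libraries moved with age as well. Cells of the macrophage or monocyte gate numbered 706 in the P42 cauda and 103 and 125 in the P56 cauda libraries, and myoid cells or fibroblasts 514 against 295 and 147. Within principal cells, the mitotic set summed to 448, 584 and 105 CPM in the P42 caput, corpus and cauda, to 163, 93.6 and 57.2 in P56 pool 1 and to 259, 97.2 and 71.0 in P56 pool 2. In CPM, the P42 value was the highest of its segment in all 3 segments there too, but age was not tested within types. These sums were not divided by composition factors. The factors of the whole libraries were 1.31 in the P42 cauda and 0.77 and 0.79 in the P56 cauda, so the order in cauda can depend on the scaling. Principal cells held 20008 of the 49528 UMIs of the mitotic set, so they are a part of the whole libraries and no separate check. The age comparison sets 1 pool against 2 and its error is the spread between the P56 pools, so age and pool cannot be told apart. The fits without a P56 pool differ from this main fit, since they took segment as an additive term with the remaining spread between libraries as error. Without P56 pool 1 or without P56 pool 2, 0 members and 0 genes passed by edgeR (14 and 23 members had an unadjusted p under 0.05), and with the 3 segments summed per pool 14 members did, beside 21.5% of all genes, and with segment as an additive term 20 did, beside 28.7%. The 14 were Mki67, Ccna2, Ccnb2, Cdk1, Top2a, Tpx2, Kif23, Ube2c, Bub1b, Mcm3, Mcm5, Mcm6 and Cenph as lower and Cenpv as higher.

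Other genes of the cycle were read from 2 lists. Of the proliferation genes outside the membership rule, 41 of 58 tested differed between ages and 21 of 57 between segments, and of the G1 cyclins, kinases, E2F factors and inhibitors 12 of 27 and 6 of 27, beside 43.3% and 29% of all genes. Cdc25b, the phosphatase that activates Cdk1, fell by 2.48 at P56 (log2, SE 0.34), Foxm1, the transcription factor of mitotic genes, by 2.05 (SE 0.42), Melk by 1.62 (SE 0.23) and the chromatin protein Hmgb2 by 0.53 (SE 0.11). The condensin subunit Smc4, the gene of this list with the most UMIs, gave 0.09 ± 0.11, and the checkpoint protein Bub3 gave 0.26 ± 0.08, although in CPM, which use no composition factors, Bub3 was higher at P42 than in both P56 pools in every segment (81.7, 73.1 and 53.4 against 46.3 to 70.5). The activator E2f1 fell by 1.80 (SE 0.31) and the repressor E2f8 by 1.82 (SE 0.33). Among the inhibitors of cyclin-dependent kinases the directions were split: Cdkn1c fell by 2.23 (SE 0.15), while Cdkn2b (1.32 ± 0.15) and Cdkn1a (0.75 ± 0.12) were higher at P56, as was the kinase Wee1 (1.07 ± 0.17). These means differed by segment (interaction adjusted p = 0.00615, 0.00861 and 0.00919, edgeR). In cauda Cdkn2b gave 3.21 ± 0.29, Cdkn1a 1.83 ± 0.22 and Wee1 2.65 ± 0.31, and in caput 0.29 ± 0.22, −0.37 ± 0.20 and −0.36 ± 0.28. In corpus Cdkn1a gave 0.79 ± 0.21 (adjusted p = 0.0394, edgeR), while Cdkn2b and Wee1 did not pass. Between segments, the D cyclin Ccnd2 was higher in corpus than in caput by 2.37 ± 0.22 and Cdkn1a higher in cauda than in caput by 2.32 ± 0.44. Rrm1, the large subunit of the enzyme of Rrm2, was higher in corpus than in caput by 2.07 ± 0.23, the D cyclin Ccnd1 was lower there (−1.01 ± 0.20), and Cdc20, the activator of anaphase, was lower in cauda than in caput (log2 −1.88 ± 0.38).

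Across marker-gated cell types, 43 members were tested in each type against the mean of the other gated types (edgeR with library as a block). Over 9 types 85 calls were made. That mean takes in the ciliated and sperm gates with the cells that carry meiotic genes. The counts without those cells are given later. Basal cells had 25 calls, with 21 lower members beside 19.9% of all genes and 4 higher beside 16.4%. Ccnb2 fell by 1.83 there (log2, SE 0.35), Tpx2 by 1.22 (SE 0.34), Cenpf by 1.2 (SE 0.34) and Mki67 by 1.05 (SE 0.35), while Mcm4 (0.56 ± 0.18), Mcm6 (0.54 ± 0.21) and Mcm7 (0.54 ± 0.20) were higher. Basal cells, which lie along the base of the duct, thus had lower levels of the called mitotic members and higher levels of 3 helicase subunits than the mean of the other types, while Mcm2, Mcm3 and Mcm5 did not pass. The 4 higher calls among 43 members were a smaller share than the 16.4% of all genes, so members were not called higher more often than other genes.

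Clear or narrow cells, which acidify the lumen, had 12 calls, of which 4 were higher, beside 21% of all genes, and 8 lower, beside 27.1%. Mcm2 (0.79 ± 0.14), Cenpx (0.59 ± 0.09), Pcna (0.43 ± 0.09) and Cenpc1 (0.39 ± 0.11) were higher, and Aurka (−1.25 ± 0.40), Top2a (−1.07 ± 0.29) and Mki67 (−0.74 ± 0.32) were among the lower members. Pcna and Mcm2 were thus called higher and Mki67 lower in this type. Principal cells had 7 calls, 4 higher beside 28.6% and 3 lower beside 23.6%, with Cenpm at 0.59 ± 0.21 and Mcm3 at −0.59 ± 0.20. Cenpx gave 0.40 ± 0.08 in principal cells but −0.00187 with scaling factors set to 1.

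In immune cells the calls included Mki67. In halo or T cells Ccna2 (1.64 ± 0.44), Rrm2 (1.37 ± 0.33), Mki67 (1.28 ± 0.38) and Mcm2 (0.84 ± 0.21) were higher, 4 calls beside 4.7% of all genes. In macrophages or monocytes Cenpa (1.2 ± 0.27), Mki67 (0.82 ± 0.29) and Mcm3 (0.69 ± 0.22) were higher, beside 12.5%, and Cenpv was lower (−1.31 ± 0.38), beside 7.83%. The mitotic set summed to 574, 172 and 244 CPM in the macrophages or monocytes of caput, to 409, 490 and 166 in corpus and to 341, 71.4 and 81.1 in cauda. Endothelial cells had 5 calls, 2 of them higher beside 13.5%, namely Mcm3 (0.98 ± 0.28) and Cenpt (0.81 ± 0.30), and 3 lower beside 12.8%. All 8 calls in myoid cells or fibroblasts were lower, beside 12%, among them Mcm2 (−0.67 ± 0.18) and Pcna (−0.49 ± 0.11).

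**Figure D3:**
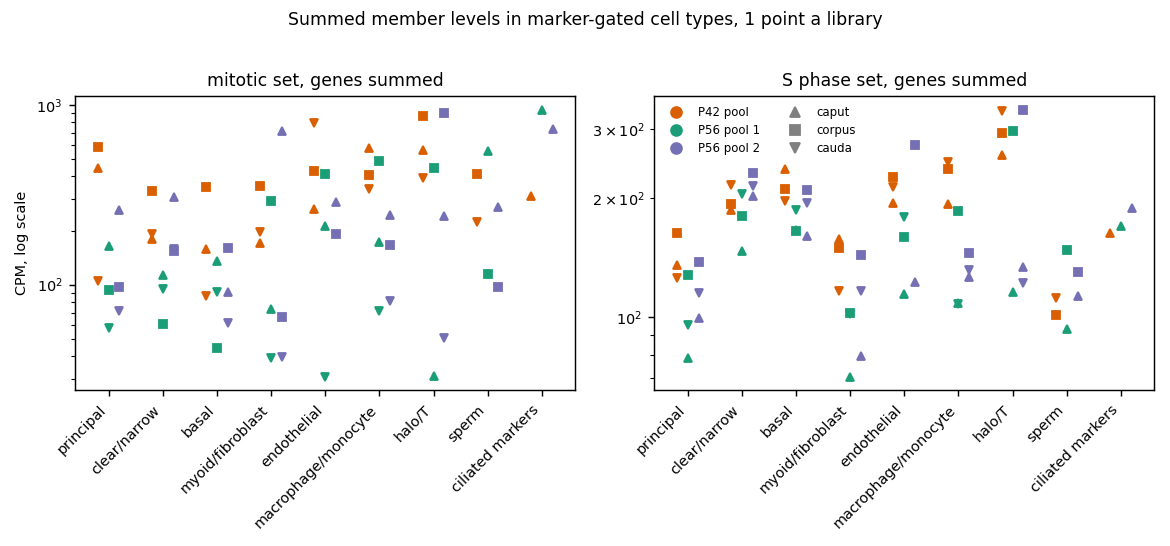
Summed levels of the mitotic set and the S phase members (vertical axes, CPM, log scale) in each gated cell type, with 1 point for each library that held 20 or more cells of the type. In principal cells the mitotic sum ran from 57.2 to 584, a wider range than the 78.6 to 163 of the S phase sum.

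The gate of ciliated-cell markers had 15 calls, all higher, beside 17.5% of all genes, and the sperm gate had 4 higher, beside 14%, and 1 lower, beside 4.2%. Ccna1 was higher by 6.06 ± 0.49 and Cenpv by 4.32 ± 0.36 in the ciliated gate, and by 3.94 ± 0.57 and 2.25 ± 0.33 in the sperm gate. After these values had been seen, cells with UMIs of 3 or more of 7 meiotic genes (Sycp1, Sycp2, Sycp3, Hormad1, Piwil1, Ddx4 and Tdrd1) were set apart. There were 80 such cells, 48 of them in the ciliated gate, 10 in the sperm gate and 22 unassigned, and 49 came from the caput of P56 pool 2, 15 from the caput of P56 pool 1 and none from cauda.

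In the 48 cells of the ciliated gate, Ccna1 stood at 246 CPM and its somatic relative Ccna2 at 0 UMIs, whereas the other 226 cells of the gate had 13.7 of Ccna1 and 3.91 of Ccna2. Aurkc stood at 60.1 and 1.30, Aurka at 165 and 9.78, Ccnb2 at 264 and 25.4 and Cenpv at 1063 and 43.0. Cenpa went the other way, at 2.61 and 20.2. The ciliated-cell marker Ccdc153 had 3 UMIs in the 48 cells and 1035 in the 226. Of the 10 markers of the gate, 7 were lower in the 48, with Foxj1 at 15.7 and 110 CPM, Sntn at 0 and 483, Tmem212 at 2.61 and 593, Fam183b at 94.1 and 514, Dynlrb2 at 434 and 518 and Cfap126 at 337 and 398. The other 3 were higher in the 48, with Rsph1 at 1573 and 203, Tekt1 at 350 and 109 and Deup1 at 94.1 and 22.2. The markers of the gate were thus split in the 48 cells, which are given no cell type name.

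Without the 80 cells, the ciliated gate kept 1 call, Cenpv (1.85 ± 0.45), beside 10.4% of all genes, and the sperm gate kept Cenpv (2.09 ± 0.31, beside 12.3%) and gained Mcm6 as lower (−1.25 ± 0.44, beside 3.98%). Ccna1 and Cenpn fell under the filter on low counts and were not retested in either gate, and Ccna1 still stood at the 13.7 CPM given above in the remaining cells of the ciliated gate. The other 12 calls of the ciliated gate no longer passed and gave −0.20 to 1.07 (log2), among them Aurka (1.07), Mcm7 (0.73) and Cdk1 (0.62), while Bub1 turned to −0.12, Ccnb1 to −0.12, Prc1 to −0.20 and Cenpj to −0.13. In the sperm gate Bub1 gave 1.27 and Pcna −0.34, neither of which passed. Calls over all types went from 85 to 63, with 40 members tested. Lower calls went to 17 in basal, 6 in clear or narrow, 5 in myoid or fibroblast, 2 in endothelial and 1 in principal cells. They stood beside 19%, 26.3%, 11.3%, 12.7% and 23.2% of all genes. Higher calls went to 6 in macrophages or monocytes (beside 12.8%). Basal, clear or narrow, halo or T and principal cells had 5 higher calls each (16.7%, 21.6%, 4.8% and 29.6%). Without the 80 cells the counts between segments and ages were 18 and 36 as before, but Aurka and Prc1 no longer passed for cauda minus caput (adjusted p = 0.0637 and 0.0643, edgeR). The 80 cells held 52.2% of the UMIs of Ccna1.

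**Figure D4:**
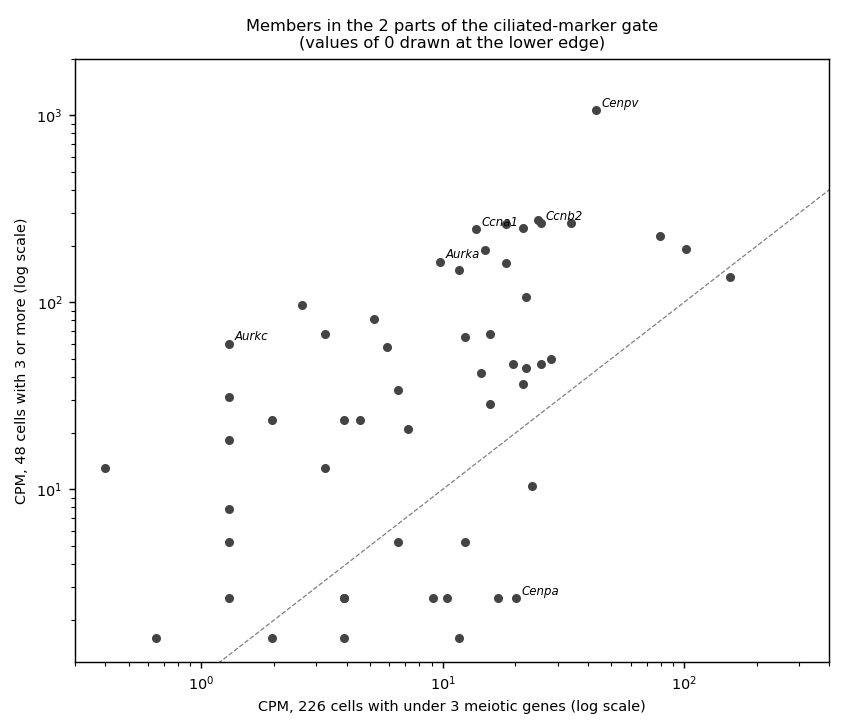
Levels of the members (CPM, both axes on a log scale) in the 226 cells of the ciliated-marker gate with fewer than 3 meiotic genes (horizontal) and in the 48 cells with 3 or more (vertical), with the line of equal levels and values of 0 at the edge. Cenpv at 1063 against 43.0 and Ccna1 at 246 against 13.7 lie far above the line, and Cenpa at 2.61 against 20.2 below it.

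Cells were also counted one by one. Each cell was thinned to 1000 UMIs, which left out 492 shallower cells, and counted when it had UMIs of at least 2 different genes of the mitotic set. This held for 1121 of 40544 cells (2.76%), and 281 had 5 or more. These cells had a mean of 4.52 mitotic UMIs per 1000 and the other cells 0.06, and median depths before thinning were 6104 and 5629 UMIs.

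The share was 4.84% in the P42 caput, 6.05% in the P42 corpus and 2.21% in the P42 cauda. It was 2.64%, 1.59% and 0.68% in P56 pool 1 and 4.82%, 1.51% and 1.17% in P56 pool 2. The exact 95% binomial intervals, which cover counting error only, were 5.34% to 6.82% for the highest library and 0.47% to 0.95% for the lowest. Cauda was lowest in each pool, but the segment means of 4.10 ± 1.26%, 3.05 ± 2.60% and 1.36 ± 0.78% (SD, n = 3) did not pass an exact two-sided permutation test within pools (p = 0.167, where 0.0278 is the smallest the design allows). Without thinning the shares ran from 3.65% to 21.7%, and caput exceeded cauda by 8.12 points (p = 0.0278, the smallest the same exact permutation test allows). The mean over segments was 4.37% at P42 and 1.64% and 2.50% in the P56 pools.

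**Figure D5:**
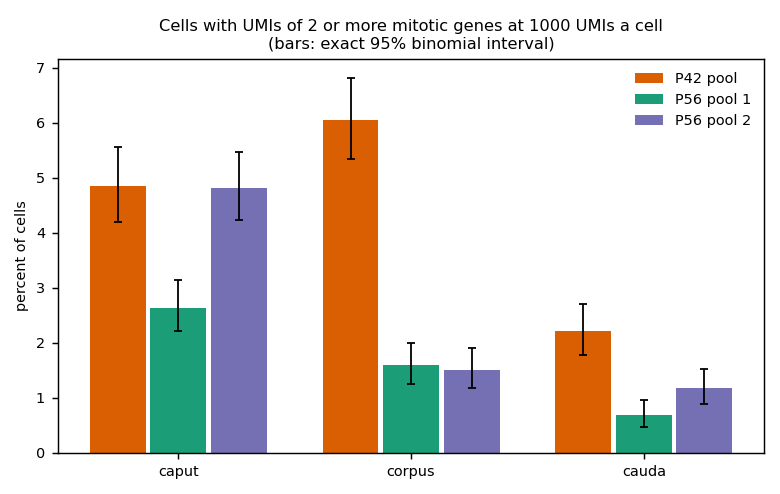
Percent of cells with UMIs of 2 or more genes of the mitotic set after thinning to 1000 UMIs (vertical axis), by segment and pool, with exact 95% binomial intervals as error bars. The P42 corpus is highest at 6.05% and the cauda of P56 pool 1 lowest at 0.68%.

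By type, with each library given equal weight, the mean share was 1.75 ± 1.72% of basal (SD, n = 9), 1.89 ± 1.46% of clear or narrow (n = 9), 1.95 ± 2.17% of myoid or fibroblast (n = 9) and 2.87% of principal cells, and 3.92 ± 2.53% of macrophages or monocytes (n = 9), 5.46 ± 3.28% of endothelial (n = 8) and 5.76 ± 2.90% of halo or T cells (n = 8). Weighted in the same way, principal cells had 4.82% at P42 (0.996% to 6.98% over 3 libraries) and 1.89% at P56 (0.63% to 4.60% over 6), and macrophages or monocytes 5.69% (3.78% to 9.48%) and 3.03% (0.97% to 4.93%). Not every mean was lower at P56. Myoid cells or fibroblasts had 1.93% (0.80% to 2.69%) and 1.97% (0% to 7.32%). The 7.32% came from 82 cells in the caput of P56 pool 2, and no other P56 library of this type exceeded 1.36%. The ciliated gate, with its meiotic-gene cells, had 1.89% in 1 library at P42 and 19.0% in 2 at P56. An exact sign-flip permutation test of each type against principal cells over libraries gave adjusted p of 0.229 to 0.5 over 8 types. The whole sperm gate, meiotic-gene cells included, was higher in 6 of 6 libraries (unadjusted p = 0.0312, the smallest that 6 libraries allow), and without those cells in 4 of 6 (p = 0.219, exact permutation). For the ciliated gate with 3 libraries the smallest p is 0.25. The test takes libraries as units although those of a pool share mice.

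Free RNA gives UMIs in cells that do not express a gene, so the share was also taken in the sperm gate, since sperm do not divide. The sperm gate without the meiotic-gene cells had 10 of 184 cells at P42 (5.43%, exact 95% interval 2.64% to 9.77%) and 16 of 442 at P56 (3.62%, 2.08% to 5.81%), at a median of 4747 UMIs for the whole gate, where principal cells had 6721. Of its 26 counted cells, 6 had 5 or more mitotic genes, as had 281 of the 1121 counted cells in all, so free RNA and other cells within the gate cannot be told apart. In the 6 libraries with 20 or more cells of the sperm gate after these were left out, its share was exceeded by basal, by clear or narrow and by myoid or fibroblast cells in 1 each, by principal cells and by macrophages or monocytes in 2 each, by halo or T cells in 5 and by endothelial cells in 6. These libraries held only 24 to 130 endothelial and 23 to 119 halo or T cells. In the caput of P56 pool 2, endothelial cells had 4.62% and the sperm gate 4.43%. Differences from the sperm gate were not tested. Shares at or below that of the sperm gate are therefore not read as cycling cells of a type or as their absence, and 99 principal cells and 28 macrophages or monocytes had 5 or more mitotic genes. Of the 80 meiotic-gene cells, 40 passed the count.

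The counted cells held 2.91% of all UMIs. Members that were not used to count them were nonetheless unevenly spread, with 50.4% of the UMIs of Cenpi, 45.8% of Cenpm and 20.1% of Rrm2 in these cells, but 5.70% of Pcna, 4.21% of Cenpx, 3.90% of Mcm4 and 2.55% of Mcm3ap. The level in counted cells over that in other cells had a median of 7.88 for the 16 constitutive centromere members, 3.46 for the 10 S phase members, 17.0 for 57 proliferation genes outside the rule and 1.18 for all 17341 genes with 100 or more UMIs. For the 25 G1 genes the median was 1.38. A UMI of an S phase member was found in 21.4% of the counted cells and 11.8% of the others. Most UMIs of Pcna, Cenpx and Mcm4 thus lay in cells that were not counted.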

How the data were processed

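Single-cell libraries of 9 segment and pool combinations were analysed from 1 table of raw UMI counts per gene and cell barcode, as deposited by the authors, who had trimmed the reads, extracted barcodes with UMI-tools, mapped to GRCm38.p6 with STAR 2.7.3a, assigned reads to exons and counted UMIs. Pool numbers in the table were tied to ages through the labels and the methods of the study. No column of another sample was present.

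Cells with 300 to 4000 genes, at most 20000 UMIs and under 50% mitochondrial UMIs were kept (the gene limits are those of the study), and barcodes with at least 10% globin UMIs were left out. Types were gated by marker scores centred within each library, with at least 3 markers of the type detected. A type other than principal had to score at least 0.75 and lead the next such type by 0.5. Principal cells met a looser rule: a principal score above the library mean and every other type under 0.5. UMI counts were summed per library, and per type and library with 20 or more cells, and fitted over all genes with edgeR 4.0.16 in R 4.3.3 (quasi-likelihood test, low counts filtered, Benjamini-Hochberg adjustment, called under 0.05). Segments were fitted with pool as a block, types with library as a block, and ages as the mean over segments with the spread between the P56 pools as error. The libraries of the same pool come from the same mice, and their deviations correlated at 0.148 to 0.736 over 9 pairs, against −0.668 to 0.525 for 18 pairs of different pools. Cells are not replicates. The fits take libraries, or sums of a type and library, as units although those of a pool share mice. The p-values thus measure the spread between libraries, and in the age fit that between the P56 libraries of a segment. DESeq2 1.42.0, no filter, factors set to 1, other cell limits, a stricter gate and leaving out each pool were the alternatives. The segment, age and type fits were tested on simulated data, and the outcome is not given here.

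Named genes were the 3 members of each role with the most UMIs and the called members with the largest differences, up to 10 a comparison or type, and for the other lists the 3 genes with the most UMIs and up to 5 called genes a comparison. Members and lists were chosen with earlier results of these data known. Mcm6, Kif11, Kif23, Aurkc, Cenpb, Mcm3ap and Wee1 lie outside this rule and were named after their values were seen. Near-identical copies such as Ccnb1-ps and Ccnb2-ps can share reads with their parent genes, and whether the counting used strand is not given in the sources used here. Depth was 18664955 to 40763161 UMIs a library. Intervals are exact binomial and cover counting error only.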

Additional observations from a re-analysis of the deposited data

Results flagged for a closer look

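The age difference (P56 minus P42) differed between segments for 7 members (interaction, edgeR, Benjamini-Hochberg adjusted p), which is 7 of 53 beside 14.4% of all genes. As a group the members were not called more often than all genes. Cenpv, with an adjusted p of 0.0135, gave log2 differences of 2.90 in caput, 2.38 in corpus and −1.34 in cauda. The 80 cells with meiotic genes held 23.2% of its UMIs, and 49 and 15 of these cells lay in the P56 caput libraries against 2 in the P42 caput. Hmmr (adjusted p of 0.0213), Prc1 (0.0273) and Ube2c (0.0492) were lower at P56 in corpus, by −1.61, −0.98 and −1.60, and gave 0.30, 0.39 and 0.04 in cauda. Cenpq (0.0263) and Cenpw (0.0417), both subunits of the constitutive centromere, gave 1.42 and 1.36 in cauda and −0.02 and −0.08 in corpus. Cenpb (0.0315), which binds centromeric repeats, gave −1.60 in cauda and 0.22 in caput, where the P42 cauda stood at 30.2 CPM and the other libraries at 5.48 to 15.1.

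Barcodes above the upper limits on genes and UMIs entered the comparisons only in the alternative without these limits. Of these, 149 of 1529 (9.74%, exact 95% interval 8.30% to 11.3%) had UMIs of 2 or more mitotic set members at 1000 UMIs, against 2.76% of the kept cells. The P42 caput held 759 of them, with 93 counted, and the share in the other libraries was 7.27%. The P42 corpus held 191 of them. These barcodes are not in the shares by library given above, so the order of P42 caput and corpus there holds for kept cells only. Their median was 22707 UMIs.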

How the results depend on the processing

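Directions held in all 180 values of the 18 members whose cauda minus caput difference passed and, between ages, in 355 of 360 values of the 36 called members. The 5 exceptions were Pcna (−0.25), Mcm2 (−0.13), Cenpq (−0.17), Cenpw (−0.12) and Aurkaip1 (−0.094), all with scaling factors set to 1. Of members that had not passed, Top2a turned for cauda minus caput with factors set to 1 (−0.11) and with no upper limits on cells (−0.065), as did Kif11 (−0.20 and −0.12, and −0.092 to 0.18 when 1 pool was left out), and Mcm4 turned between ages (−0.23 to 0.079 when 1 P56 pool was left out). Among types, 832 of 837 values of the called members held. Cenpx in principal cells turned with factors set to 1 (−0.00187), and without the meiotic-gene cells, an alternative chosen after seeing the data, so did Bub1 (−0.12), Ccnb1 (−0.12), Prc1 (−0.20) and Cenpj (−0.13) in the ciliated gate. The causes were not tested.

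The libraries of a pool share mice. Without the pool or library as a block, members called went from 18 to 4 between segments, beside 29% and 20.1% of all genes. They went from 85 to 42 between types and from 29 to 16 between segments within types. Leaving out 1 pool gave 0 to 35, 50 to 56 and 9 to 63 calls, in the same order, and 0 between ages when a P56 pool was left out. With 1 pool left out, the share of all genes between segments ran from 3.29% to 58.3%. All-gene shares of the type fits are not given for these settings, so those counts cannot be set beside all genes. Calls between ages fell from 36 to 20 with segment as an additive term and to 14 with segments summed per pool. These stood beside 43.3%, 28.7% and 21.5% of all genes. The age fits without a P56 pool also took segment as an additive term. The P42 minus P56 difference in the share of counted cells, 2.3 points, was 9.93 not thinned, 5.00 at 2000 UMIs and 0.99 with 3 or more genes, and caput minus cauda, 2.74 points, was 8.12 not thinned. For types minus principal, myoid cells or fibroblasts went from −0.91 points to a range of −1.82 to 0.077 when 1 pool was left out and the ciliated gate from 8.86 to −1.0 without meiotic-gene cells. Fewer pools leave fewer degrees of freedom, and 1 pool at P42 limits every statement on age.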
